A study of Mus musculus with 6 samples.

Results

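The 10 genes described here encode the enzymes that hydroxylate and crosslink collagen, and they were taken by name from the count table of a study of NMuMG cells, labelled as a line from normal mouse mammary gland epithelium. They are the lysyl oxidases Lox, Loxl1, Loxl2, Loxl3 and Loxl4, the lysyl hydroxylases Plod1, Plod2 and Plod3, and the prolyl 4-hydroxylase α subunits P4ha1 and P4ha2. Each of the 10 had a row among the 18512 entries of the table. The cells received DMSO (the solvent control), 5 ng/ml of TGF-β, or the same dose of TGF-β together with 50 µM of 2APB, and each of these 3 groups gave 2 libraries. TGF-β drives these cells through the epithelial-mesenchymal transition, and 2APB (2-aminoethoxydiphenyl borate) blocks several calcium and TRP channels. The treatment is given as 24 h, although the methods of the study place 2APB for 24 h ahead of TGF-β, and which timing applies cannot be told from the counts. No group with 2APB alone was analysed here, so the effect of 2APB could be measured only in the presence of TGF-β. All groups are 1 established line in culture, with no transgene named in the labels.

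Collagen chains are modified in the endoplasmic reticulum before they fold. Prolyl 4-hydroxylase, a tetramer of 2 α subunits and 2 β subunits, hydroxylates prolines, which stabilises the triple helix, and the lysyl hydroxylases modify lysines that later take part in crosslinks. Lysyl oxidases are secreted, copper-dependent enzymes that oxidise lysines and hydroxylysines of collagen and elastin outside the cell, and both hydroxylase families need iron, 2-oxoglutarate and ascorbate. Several of these genes are known targets of TGF-β and of the hypoxia-inducible factor HIF-1, and their products are studied in fibrosis and tumour stroma.

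Promoter sequences are shown for P4ha1, P4ha2 and Plod1, because these 3 genes had more counts with TGF-β than in DMSO and the RefSeq windows of build GRCm38.p6 held a full stretch before the start free of annotated exons. RefSeq windows were at hand for 5 of the 10 genes, Loxl4, Plod1, Plod3, P4ha1 and P4ha2. Capitals mark the core letters of the HIF-1 binding element, ACGTG or GCGTG, on either strand (CACGT or CACGC when read on the other). P4ha1 is shown from chr10:59323046-59323295 (plus strand), P4ha2 from chr11:54100674-54100923 (plus strand) and Plod1 from chr4:147936777-147937026 (minus strand), each as the 250 bases just before the RefSeq start. The P4ha2 window lies inside the gene as GENCODE annotates it (chr11:54100095-54131665), downstream of the first start given there.
P4ha1: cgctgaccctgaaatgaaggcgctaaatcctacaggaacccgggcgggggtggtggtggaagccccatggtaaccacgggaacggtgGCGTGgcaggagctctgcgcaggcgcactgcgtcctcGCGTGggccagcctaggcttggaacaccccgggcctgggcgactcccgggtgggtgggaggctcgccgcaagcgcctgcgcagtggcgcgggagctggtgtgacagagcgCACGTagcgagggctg
P4ha2: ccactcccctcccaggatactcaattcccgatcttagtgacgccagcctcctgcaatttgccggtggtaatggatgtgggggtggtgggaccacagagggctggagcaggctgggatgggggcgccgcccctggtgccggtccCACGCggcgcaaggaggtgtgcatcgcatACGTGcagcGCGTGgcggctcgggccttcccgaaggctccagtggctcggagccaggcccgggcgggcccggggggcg
Plod1: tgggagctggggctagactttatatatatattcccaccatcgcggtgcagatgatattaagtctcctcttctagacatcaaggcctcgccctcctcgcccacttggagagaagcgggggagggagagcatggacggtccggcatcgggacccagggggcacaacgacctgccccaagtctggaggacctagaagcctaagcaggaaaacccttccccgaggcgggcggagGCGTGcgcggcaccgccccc

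The P4ha1 and P4ha2 windows each held 1 ACGTG and 2 GCGTG cores, and the Plod1 window held 1 GCGTG core 20 bases before the start. Of the windows not shown, that of Plod3 held 1 ACGTG and 3 GCGTG cores and that of Loxl4 held 1 GCGTG core. Among 32851 RefSeq windows of 250 bases, 16.6% held ACGTG, 28.2% held GCGTG and 38.6% held either. The SMAD element CAGAC, which 42.2% of the windows held, matched once in Plod1 and once in Loxl4 and not in the other windows, and the AP-1 element TGANTCA, held by 6.75%, matched in none of the 5. These matches are letters in a window and were not tested as binding sites.

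Total counts per library ran from 71840570 to 79473182. Values below are normalized counts, that is counts scaled to the mean library by TMM (trimmed mean of M values) factors, and a gene was tested when its mean over the 6 libraries was at least 20, which 13353 entries reached. A gene is called changed when the FDR (Benjamini-Hochberg adjusted p) of edgeR's quasi-likelihood test over these 13353 entries was 0.05 or less, and each log2 fold change is given with its standard error (SE). The log2 difference between replicates had an SD over genes of 0.37 in DMSO, 0.61 with TGF-β and 0.83 with TGF-β+2APB. The study calls the 2 libraries of a group biological replicates without saying whether the cultures were separate, so p-values measure the spread between these libraries, which may be partly technical. The epithelial keratins Krt8 and Krt18 and the cadherin Cdh1 were present in every library, with Cdh1 at 35058 normalized counts or more, while the epithelial regulators Esrp1 and Grhl2 had at most 4.13 normalized counts in any library. Of 7 tested epithelial markers, 4 were lower with TGF-β than in DMSO (Cdh1 at log2 -0.78, Epcam at -1.42, Krt19 at -2.04 and Ocln at -0.66) and 3 were higher (Krt8, Krt18 and Cldn4), with a median of -0.66. Cldn4, with a DMSO mean of 4.08, reached the minimum for testing only through the treated libraries. The 9 epithelial markers in the table summed to between 533712 and 568269 in DMSO, 706731 and 829143 under TGF-β, and 1312540 and 1379520 under TGF-β+2APB, and Krt8 and Krt18 made up most of each sum. A list of 8 hepatocyte genes, led by albumin, summed to 85124 and 93998 normalized counts in DMSO, to 685 and 1278 with TGF-β and to 147 and 179.5 with TGF-β+2APB, and all 6 of its tested genes were lower with TGF-β than in DMSO. The 6 blood cell markers in the table summed to between 135 and 615 in 5 libraries and to 2877 in TGF-β+2APB replicate 2. Endothelial, adipocyte and myoepithelial markers summed to at most 430.1, 169 and 125 in any library. High hepatocyte genes beside near-absent Esrp1 and Grhl2 are unusual for mammary epithelium, so in DMSO the labelled cell type and the markers are at odds, and every comparison with DMSO below rests on these libraries. The markers moved with the groups or with 1 library, and their part in the results below was not tested. In bulk RNA, fewer cells of a type and less RNA per cell cannot be told apart.

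Transcripts from all 3 enzyme families were higher with TGF-β than in DMSO. Of the 10 genes, 9 were called higher than in DMSO and none lower, and the remaining gene, Loxl3, was not called. Of all tested entries, 21.8% were called higher and 19.7% lower in this comparison. The median log2 fold change of the 10 genes was 1.20, against -0.01 over all tested entries. Lox and Loxl1 reached the minimum for testing only through the treated libraries, and of the 8 genes that reached it in DMSO as well, 7 were called and the median was 0.80. Without either DMSO library the calls of Lox, Loxl4, Plod3 and P4ha1 were lost, and fewer of all entries were called as well. Leaving out single libraries put Lox at log2 1.72 to 2.52 and Loxl4 at 0.41 to 0.77. Plod3 then lay at 0.34 to 0.55 and P4ha1 at 0.32 to 0.43.

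With 2APB added to TGF-β, 1 of the 10 genes, Loxl2, was called against TGF-β alone, and it was higher. In that comparison 6.58% of all tested entries were called higher and 10.9% lower, so 1 call among 10 genes is near the background. The median log2 fold change of the 10 genes was 0.03, against -0.0037 over all entries. Against DMSO, TGF-β+2APB left 7 of the 10 genes called higher and none lower, with 25.6% of all entries called higher and 27.2% lower, and the median was 1.27. Over the 8 genes that reached the minimum in DMSO, 5 were called and the median was 0.93. The 3 comparisons share libraries, so their counts are not independent of each other.

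**Figure D1:**
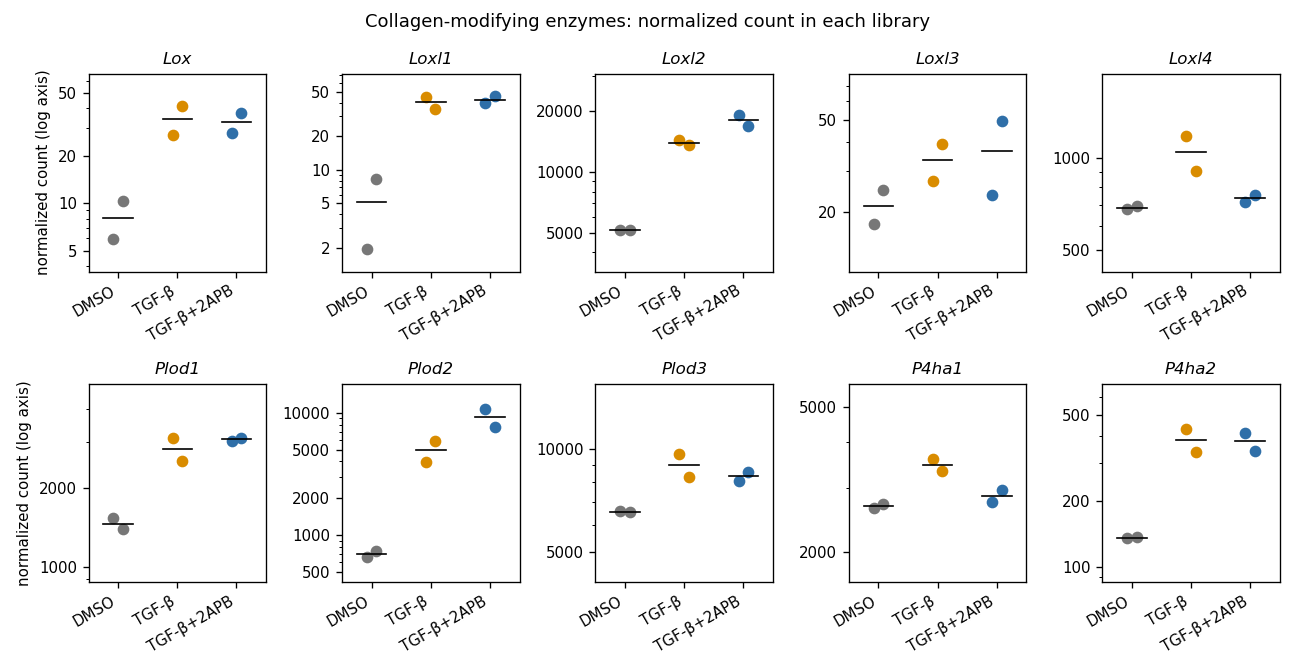
Normalized count (vertical log axis, a separate range for each gene) of the 10 genes in the DMSO, TGF-β and TGF-β+2APB libraries. Points are single libraries and lines are means of 2. For Loxl2 and Plod2 the TGF-β+2APB points lie above the TGF-β points, and for Loxl4 and P4ha1 they lie below. The share of all entries that separate in either way was not computed.

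Loxl2 was the lysyl oxidase with the most counts in every library. It lies on the plus strand at chr14:69609068-69695834 (GRCm38) and encodes an enzyme that acts on collagen IV of basement membranes and, in the nucleus, has been tied to Snail and the epithelial-mesenchymal transition. Loxl2 had 5179 and 5136 normalized counts in DMSO, 14325 and 13626 under TGF-β, and 19192 and 16809.8 under TGF-β+2APB. The 3 groups did not overlap and stood in this order, and the share of all entries that did so was not computed. The rise with TGF-β was 2.71-fold (log2 fold change 1.44, SE 0.089, edgeR FDR 0.000202). TGF-β+2APB was a further 1.29-fold above TGF-β alone (log2 0.37, SE 0.087, 95% interval 0.15 to 0.58, edgeR FDR 0.0417), and this call was lost in 8 of 15 alternative analyses. The FDR over the 15 ran from 0.00121 to 0.348. The call was lost in the fits without either DMSO library (edgeR FDR 0.128 and 0.129) and without TGF-β+2APB replicate 1 or 2 (log2 0.24 and 0.45, edgeR FDR 0.348 and 0.0832). Loxl2 shares 301 exonic bases with Gm27177, an annotated antisense RNA, and the strand setting of the authors' counting is not given in the sources used here, so reads of the 2 cannot be told apart there.

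Loxl4, at chr19:42593982-42612813 on the minus strand, was the second lysyl oxidase by level. It had 680.1 and 694 normalized counts in DMSO, 1173 and 907 under TGF-β, and 719 and 756 under TGF-β+2APB. Both TGF-β libraries were above the other 4, and the TGF-β+2APB libraries sat just above DMSO. The rise with TGF-β was 1.51-fold (log2 0.60, SE 0.14, edgeR FDR 0.0203). The difference of TGF-β+2APB from TGF-β alone, log2 -0.50 (SE 0.14, 95% interval -0.85 to -0.14), had an edgeR FDR of 0.0671 and was not called, and it passed in 3 of 15 alternatives, with DESeq2, with library size scaling and without TGF-β replicate 2 (log2 -0.67, edgeR FDR 0.00643). Against DMSO the TGF-β+2APB libraries differed by log2 0.10 (95% interval -0.25 to 0.45, edgeR FDR 0.583).

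Lox and Loxl1, the oxidases of fibrillar collagen and of elastic fibres, were near the limit of counting. Lox had 6 and 10 raw counts in DMSO, 28 and 40 under TGF-β, and 28 and 38 under TGF-β+2APB. Loxl1 (chr9:58287738-58313186, minus strand) had 2 and 8 raw counts in DMSO, 46 and 34 under TGF-β, and 40 and 46 under TGF-β+2APB. Both were therefore low in DMSO and higher in each of the 4 treated libraries, at counts that remained below 50. All deposited counts were even, so the reads behind these counts may be fewer. The fitted rise with TGF-β was log2 2.07 for Lox (SE 0.47, 95% interval 0.89 to 3.25, edgeR FDR 0.0178). For Loxl1 it was log2 2.95 (SE 0.61, 95% interval 1.43 to 4.48, edgeR FDR 0.0127), a value that rests on 10 DMSO counts in all and was 2.26 without DMSO replicate 1 and 4.27 without DMSO replicate 2. The differences between TGF-β+2APB and TGF-β alone were log2 -0.08 for Lox and 0.08 for Loxl1, with 95% intervals from -1.14 to 0.99 and from -1.20 to 1.37, so a difference in either direction was not detectable at this depth.

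Loxl3, another oxidase of the family, at chr6:83034173-83052562, was the gene without a call in any comparison. It had 18 and 24 raw counts in DMSO, 28 and 38 under TGF-β, and 24 and 50 under TGF-β+2APB. The TGF-β libraries were above DMSO, while 1 TGF-β+2APB library lay within the DMSO range and the other above all. The log2 difference between TGF-β and DMSO was 0.65 (SE 0.49, 95% interval -0.57 to 1.86, edgeR FDR 0.337). Loxl3 shares 535 exonic bases with Htra2 on the opposite strand, a mitochondrial protease gene with 1428 normalized counts on average in DMSO, and Htra2 itself was higher with TGF-β (log2 0.57, edgeR FDR 0.00656). Without the strand setting, part of the few Loxl3 counts may belong to either gene.

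Plod2 had the largest change of the lysyl hydroxylases with TGF-β. It lies at chr9:92542223-92608428 on the plus strand, and its product hydroxylates lysines of the collagen telopeptides, which gives the hydroxylysine-derived crosslinks typical of stiff and fibrotic matrix. Plod2 had 660.4 and 750.0 normalized counts in DMSO, 3964 and 5910.1 under TGF-β, and 10616 and 7681 under TGF-β+2APB. The groups did not overlap, a separation whose share over all entries was not computed, and the replicates within each treated group stood well apart. The mean rose from 705 to 4937 with TGF-β (log2 2.81, SE 0.25, edgeR FDR 0.000706). TGF-β+2APB stood 1.85-fold above TGF-β alone (log2 0.89, SE 0.24, 95% interval 0.31 to 1.47), with an edgeR FDR of 0.0547 that missed the threshold. This difference passed in 5 of 15 alternatives, whose FDR values overall ran from 0.00295 to 0.210, and among them were the fits without TGF-β replicate 2 (log2 1.21, edgeR FDR 0.0118) and without TGF-β+2APB replicate 2 (log2 1.11, edgeR FDR 0.0444). Against DMSO the TGF-β+2APB libraries were higher (log2 3.70, SE 0.26, edgeR FDR 0.000186). Plod2 shares 346 exonic bases with Gm38391, an unclassified transcript on the other strand.

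Plod1, at chr4:147909753-147936767 on the minus strand, encodes the lysyl hydroxylase of the helical collagen domain. It had 1529 and 1392.5 normalized counts in DMSO, 3107 and 2546 under TGF-β, and 3035 and 3111 under TGF-β+2APB. All 4 treated libraries were above DMSO and the treated groups overlapped. The rise with TGF-β was 1.93-fold (log2 0.95, SE 0.12, edgeR FDR 0.00189), and TGF-β+2APB differed from TGF-β alone by log2 0.12 (95% interval -0.16 to 0.40, edgeR FDR 0.506). Without TGF-β replicate 1 this difference was log2 0.27 and passed (edgeR FDR 0.0440).

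Plod3, at chr5:136987019-136996648 on the plus strand, encodes the family member that also transfers galactose and glucose to hydroxylysine, and it was the gene with the highest level of the 10 in DMSO. Plod3 had 6622 and 6539 normalized counts in DMSO, 9668 and 8279.9 under TGF-β, and 8066 and 8606 under TGF-β+2APB. The treated libraries were above DMSO and overlapped each other. Its rise with TGF-β was small, 1.36-fold (log2 0.45, SE 0.097, edgeR FDR 0.0146), and TGF-β+2APB differed from TGF-β by log2 -0.11 (95% interval -0.35 to 0.13, edgeR FDR 0.490). Without TGF-β replicate 2 the latter was log2 -0.21 and passed (edgeR FDR 0.0479). Plod3 shares 529 exonic bases with Znhit1 on the opposite strand, which was not called with TGF-β (log2 0.09, edgeR FDR 0.512).

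P4ha1, at chr10:59323296-59373304, encodes the α subunit that predominates in most tissues. It had 2646 and 2715 normalized counts in DMSO, 3602 and 3337 under TGF-β, and 2748 and 2958 under TGF-β+2APB. The TGF-β libraries were the highest 2 of the 6, and the TGF-β+2APB libraries were just above DMSO. The rise with TGF-β was 1.29-fold (log2 0.37, SE 0.077, edgeR FDR 0.0125). The difference of TGF-β+2APB from TGF-β alone was log2 -0.28 (SE 0.077, 95% interval -0.47 to -0.09) with an edgeR FDR of 0.0592, which was not called. It passed in 4 of 15 alternatives, 2 of them without TGF-β replicate 1 or 2 (log2 -0.22 and -0.34, edgeR FDR 0.0455 and 0.0134). Against DMSO the difference was log2 0.09 (95% interval -0.10 to 0.28, edgeR FDR 0.371).

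P4ha2, at chr11:54100095-54131665 on the plus strand, encodes the second α subunit, known from cartilage and endothelium. It had 136 normalized counts in both DMSO libraries, 430.5 and 336 under TGF-β, and 412 and 341 under TGF-β+2APB. The 4 treated libraries were all above DMSO and the treated groups overlapped. The rise with TGF-β was 2.82-fold (log2 1.49, SE 0.20, edgeR FDR 0.00253), and TGF-β+2APB differed from TGF-β by log2 -0.03 (95% interval -0.50 to 0.44, edgeR FDR 0.940).

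**Figure D2:**
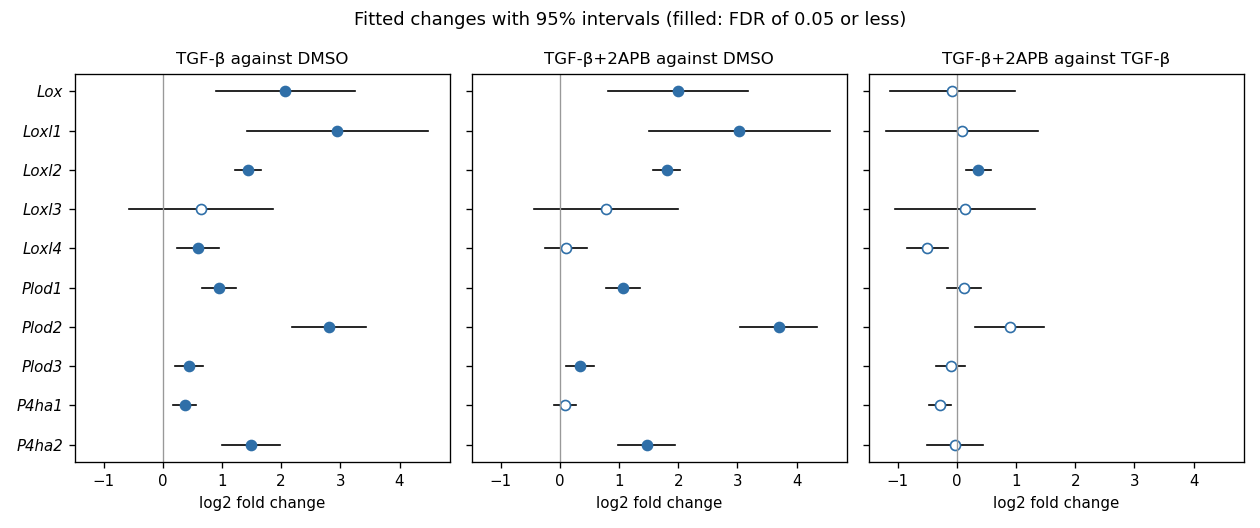
Fitted log2 fold change (horizontal axis) of each of the 10 genes in the 3 comparisons, with 95% intervals as lines. Filled points have an edgeR FDR of 0.05 or less. In the right panel Loxl2 is the filled point, Plod2 (0.89) lies farthest to the right, and Loxl4 (-0.50) and P4ha1 (-0.28) lie to the left of 0.

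In TGF-β+2APB against DMSO, the genes called were Lox (log2 1.99), Loxl1 (3.04), Loxl2 (1.80), Plod1 (1.07), Plod2 (3.70), Plod3 (0.34) and P4ha2 (1.47), and Loxl3, Loxl4 and P4ha1 were not called. Loxl4 and P4ha1 were thus called with TGF-β and not with TGF-β+2APB, and the direct test between these 2 groups did not call either gene. The Plod3 call against DMSO (edgeR FDR 0.0288) was lost in 5 of 15 alternatives, including each of those that left out a DMSO or a TGF-β+2APB library (log2 0.32 to 0.38, edgeR FDR 0.0999 to 0.157). The Lox call was lost without DMSO replicate 1 (log2 1.65, edgeR FDR 0.103) and without TGF-β+2APB replicate 2 (log2 1.78, edgeR FDR 0.0575).

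Levels between genes were compared as CPM (counts scaled to the library total) per kb of merged exons. In DMSO the order of mean levels was Plod3 (19.1), Loxl2 (12.5), P4ha1 (8.52), Plod1 (2.83), Loxl4 (2.13), Plod2 (1.71), P4ha2 (0.285), Loxl3 (0.0604), Lox (0.0222) and Loxl1 (0.0203), and the last 2 overlapped between libraries. With TGF-β, Loxl2 (33.8 ± 1.20, SD, n = 2) stood above Plod3 (26.0 ± 2.84), and Plod2 (12.0 ± 3.34) overlapped P4ha1 (11.0 ± 0.596). With TGF-β+2APB, Loxl2 (43.6 ± 4.08) was again the highest, and Plod2 (22.2 ± 5.04) overlapped Plod3 (24.1 ± 1.11). By mean level Plod2 stood at place 6 of the 10 in DMSO and at place 3 in both treated groups. Its place differed between single treated libraries, given these overlaps with P4ha1 and Plod3.

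The summed level and the makeup of the families moved as well. The 5 lysyl oxidases summed to 14.7 CPM per kb in both DMSO libraries, 38.6 and 36.2 under TGF-β, and 49.0 and 43.5 under TGF-β+2APB. Loxl2 made up 85.2% and 84.5% of this sum in DMSO, 89.7% and 91.2% under TGF-β, and 94.8% and 93.6% under TGF-β+2APB. The count ratio of Loxl2 to Loxl4 was 7.62 and 7.40 in DMSO, 12.2 and 15.0 under TGF-β, and 26.7 and 22.2 under TGF-β+2APB. This ratio within libraries, which no scaling between libraries alters, did not overlap between the 3 groups.

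The 3 lysyl hydroxylases summed to 23.7 and 23.4 CPM per kb in DMSO, 43.6 and 43.2 under TGF-β, and 55.0 and 49.6 under TGF-β+2APB. Plod2 held 6.75% and 7.76% of the sum in DMSO, 22.1% and 33.2% under TGF-β, and 46.9% and 37.6% under TGF-β+2APB. Plod3 held 80.8% in each DMSO library, 64.2% and 55.4% under TGF-β, and 42.5% and 50.3% under TGF-β+2APB. The lysyl hydroxylase for telopeptides and the one with glycosyltransferase activity therefore approached equal levels in the TGF-β+2APB libraries, where the count ratio of Plod2 to Plod3 was 1.32 and 0.892, against 0.0997 and 0.115 in DMSO.

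The prolyl 4-hydroxylase α subunits summed to 8.70 and 8.92 CPM per kb in DMSO, 12.4 and 11.3 under TGF-β, and 9.60 and 10.1 under TGF-β+2APB. P4ha2 held 3.27% and 3.21% of the sum in DMSO, 7.31% and 6.23% under TGF-β, and 8.99% and 7.07% under TGF-β+2APB. These shares depend on the length used, and with the longest transcript of each gene they were 6.34% and 6.22%, 13.6% and 11.7%, and 16.5% and 13.2%, in the same order of groups. P4hb, the β subunit (protein disulfide isomerase) of the same enzyme, was far more abundant, and it was not called with TGF-β (log2 -0.27, edgeR FDR 0.0897) and was called lower in TGF-β+2APB than in DMSO (log2 -0.36, edgeR FDR 0.0292). The count ratio of P4hb to the 2 α subunits together was 27.5 and 25.9 in DMSO, 17.0 and 15.3 under TGF-β, and 18.3 and 17.9 under TGF-β+2APB, so both treated groups lay below DMSO. P4hb and this ratio were chosen after values were seen. The third α subunit, P4ha3, had between 8.26 and 12.5 normalized counts in any library and was not tested.

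**Figure D3:**
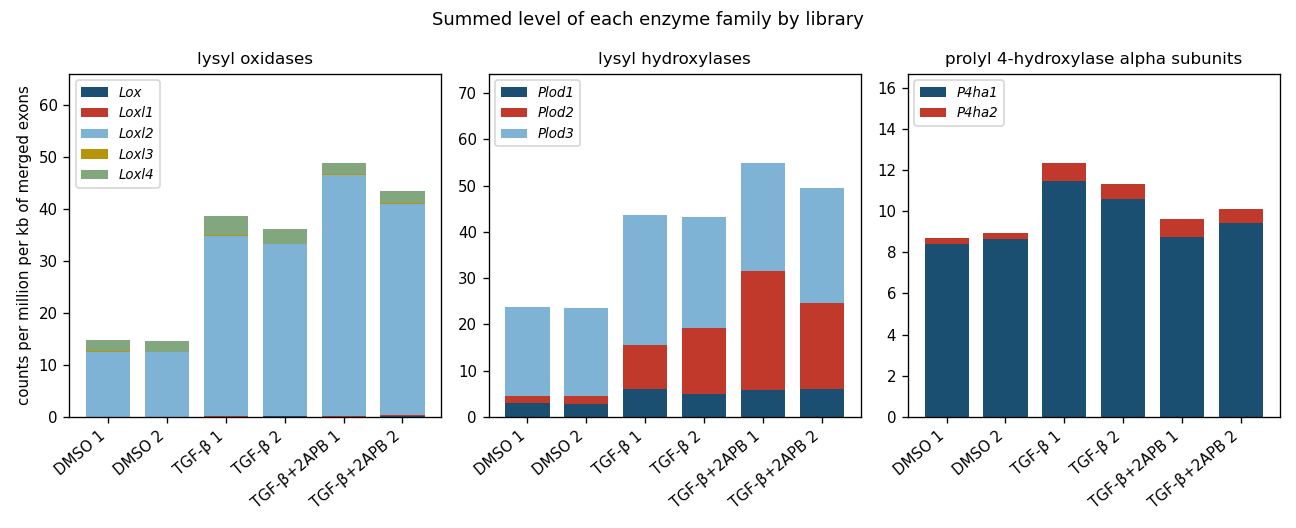
Summed level of each family in each library, in CPM per kb of merged exons, with the part of each gene in colour. Loxl2 fills most of each lysyl oxidase bar, the Plod2 part widens from DMSO to TGF-β to TGF-β+2APB, and the α subunit bars are highest with TGF-β (12.4 and 11.3).

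Around these enzymes, 4 further lists were read. Their counts of calls stand beside the shares over all tested entries, 21.8% higher and 19.7% lower with TGF-β against DMSO, 6.58% and 10.9% for TGF-β+2APB against TGF-β, and 25.6% and 27.2% for TGF-β+2APB against DMSO. Of 35 collagen folding and processing partners, 33 had a row and 24 were tested, and with TGF-β 11 were called higher and 4 lower, with a median log2 fold change of 0.33. The largest rise in this list was that of Pcolce2, an enhancer of procollagen C-proteinase, which had 11.8 and 10.3 normalized counts in DMSO and 2234 and 1969 with TGF-β (log2 7.55, SE 0.16, edgeR FDR 2.12e-05). Pcolce2, which is among the 11, reached the minimum for testing only through the treated libraries. Bmp1, the C-proteinase that also activates pro-lysyl oxidase, went from 6036 and 6111 to 30654 and 28928 (log2 2.29, SE 0.074, edgeR FDR 3.91e-05). Pcolce, the related enhancer, was lower with TGF-β (log2 -0.70, edgeR FDR 0.00512) and lower again with TGF-β+2APB than with TGF-β (log2 -0.68, edgeR FDR 0.0165). Bmp1 and Pcolce were chosen after their values were seen. Serpinh1, the collagen chaperone HSP47, was not called with TGF-β (log2 0.21, edgeR FDR 0.144), and it too was chosen after its values were seen.

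With TGF-β+2APB against TGF-β, 5 of the 24 partners were higher and 1, Pcolce, was lower, beside 6.58% and 10.9% of all entries. How many of these 24 were called changed with the single library left out, in both directions, and the count over all entries changed likewise. Creb3l1, a transcription factor of the endoplasmic reticulum that acts on collagen genes, had 349.9 and 357 normalized counts in DMSO, 1453 and 1341 under TGF-β, and 3182 and 2833 under TGF-β+2APB. It was higher with TGF-β+2APB than with TGF-β (log2 1.11, SE 0.094, edgeR FDR 0.00375). Adamts3, a procollagen N-proteinase, was also higher (log2 0.98, SE 0.25, edgeR FDR 0.0493). In TGF-β+2APB against DMSO, 12 partners were higher and 5 lower. Fewer were called without either DMSO or either TGF-β+2APB library, as over all entries.

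Of 8 crosslinked substrates, 4 were tested, and 2 of these were called higher with TGF-β and none lower. The 2 others, Col4a1 and Col4a2, missed the threshold (edgeR FDR 0.0760 and 0.0502). All 4 were called higher with DESeq2, beside 3280 of all 13353 entries. Col4a1 and Col4a2 also crossed the threshold without TGF-β replicate 2, where more of all entries were called. Col1a1, the α1 chain of type I collagen, had 51.1 and 74.4 normalized counts in DMSO, 1625 and 1724.5 under TGF-β, and 2154 and 1645 under TGF-β+2APB (log2 4.74 for TGF-β against DMSO, SE 0.23, edgeR FDR 0.000103). Col5a1, a chain of the type V collagen that starts fibrils, rose by log2 2.51 (SE 0.084, edgeR FDR 4.47e-05). The partner chains Col1a2 and Col5a2 had at most 5.92 and 9.90 normalized counts in any library, and elastin (Eln) at most 1.98. Of the 4 tested substrates, 0 were called between TGF-β+2APB and TGF-β by edgeR (1, Col4a1, had an unadjusted p under 0.05). DESeq2 called 1, beside 3646 of all 13353 entries. Leaving out either TGF-β library raised the count, here and over all entries. All 4, the basement membrane chains Col4a1 and Col4a2 among them, were higher with TGF-β+2APB than in DMSO, and fewer passed without TGF-β+2APB replicate 1.

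Of 8 genes of copper and ascorbate supply, all tested, 3 were higher and 2 lower with TGF-β, beside 21.8% and 19.7% of all entries. Fewer were called without either DMSO library, as over all entries. Counts this small are not told from the shares over all entries. Atp7b, a copper exporter known from liver, had 1341 and 1479 normalized counts in DMSO, 138 and 131 under TGF-β, and 35.6 and 47.4 under TGF-β+2APB. Atp7b fell with TGF-β by 3.39 on the log2 scale (SE 0.17, edgeR FDR 0.000105) and was lower again with TGF-β+2APB than with TGF-β (log2 -1.69, SE 0.17, edgeR FDR 0.00506), beside the lower hepatocyte genes given above, whose part in this result was not tested. Atp7a, the copper pump that supplies lysyl oxidases, was lower with TGF-β (log2 -0.80, SE 0.14, edgeR FDR 0.00711). Slc23a2, an ascorbate transporter, was higher (log2 0.89, SE 0.063, edgeR FDR 0.000306). Atp7a and Slc23a2 were chosen after their values were seen. Between TGF-β+2APB and TGF-β, 1 of the 8, Atp7b, was called (more without either TGF-β library, as over all entries), and against DMSO 3 were higher and 3 lower.

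Of 20 HIF-1 response genes, 19 were tested, and with TGF-β 6 were called higher and 8 lower, beside 21.8% and 19.7% of all entries, with a median log2 fold change of -0.25. The falls included Car9, a carbonic anhydrase, with 218 and 209 normalized counts in DMSO and 74.0 and 51.9 with TGF-β (log2 -1.76, SE 0.27, edgeR FDR 0.00434). Pdk1, the kinase that switches off pyruvate dehydrogenase, fell as well (log2 -1.54, SE 0.081, edgeR FDR 0.000128). The rises included Pfkfb4 (log2 2.13, SE 0.16, edgeR FDR 0.000374) and Hk2 (log2 1.81, SE 0.085, edgeR FDR 9.75e-05), both named after their values were seen. The list did not move as 1 group, and neither did it between TGF-β+2APB and TGF-β, where 6 were higher and 4 lower. Fewer were called without either DMSO library or without TGF-β+2APB replicate 1, as over all entries. In that comparison Pfkfb4, a regulator of glycolysis, was higher (log2 1.44, SE 0.15, edgeR FDR 0.00552). Egln3, a HIF prolyl hydroxylase, fell by 1.71 on the log2 scale (SE 0.24, edgeR FDR 0.0109), and Pdk1 fell by 0.88 (SE 0.081, edgeR FDR 0.00418). Against DMSO, TGF-β+2APB had 8 higher and 10 lower, with Pfkfb4 at log2 3.57, Egln3 at -2.90 and Pdk1 at -2.42.

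**Figure D4:**
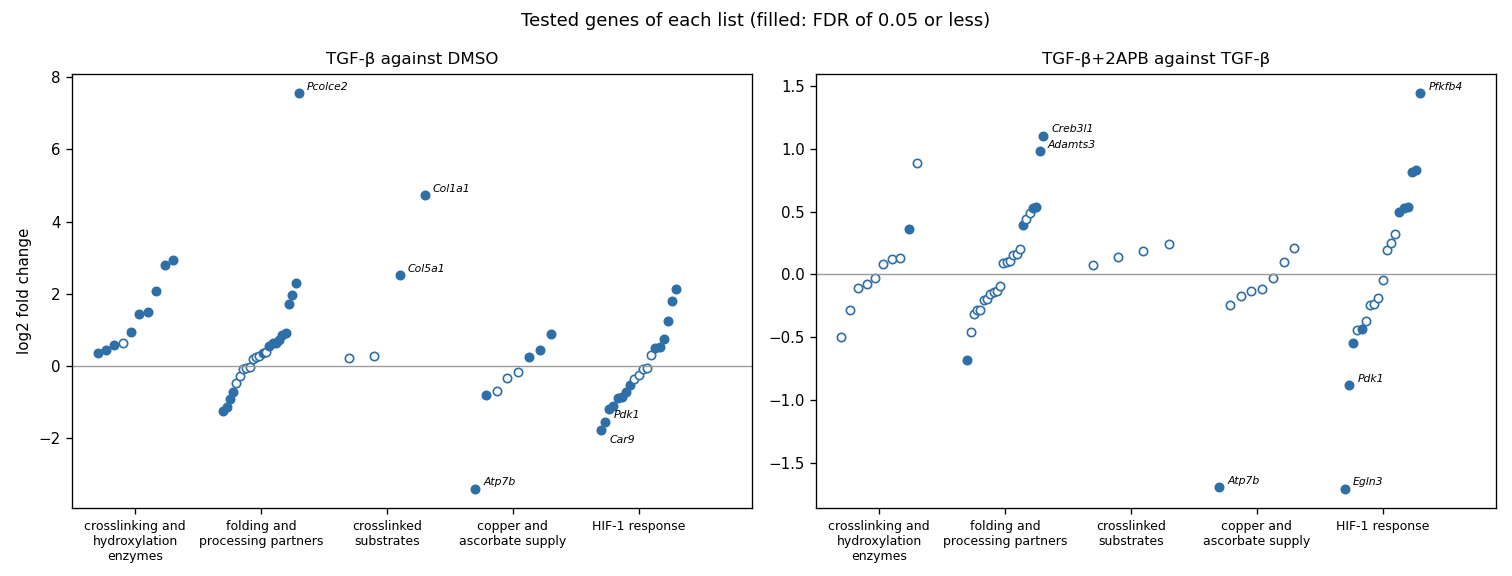
Log2 fold change (vertical axis) of every tested gene of the enzymes and of the 4 further lists, sorted within each list, for TGF-β against DMSO (left) and TGF-β+2APB against TGF-β (right). Filled points have an edgeR FDR of 0.05 or less. The 10 enzymes lie above 0 on the left, where the median over all tested entries was -0.01. The HIF-1 response genes lie on both sides of 0 in both panels.

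The genes whose pattern over the 6 libraries was nearest to that of Loxl2 were Zyx, which encodes zyxin of focal adhesions, Tiam2, which encodes a Rac exchange factor, and Hmga2-ps1, named as a pseudogene, whose counts may share reads with a parent gene. The root mean square difference of their centred log2 normalized values from those of Loxl2 was 0.038, 0.042 and 0.042 over 6 libraries. Zyx had 11424 and 11002 normalized counts in DMSO, 31615 and 28065 under TGF-β, and 40123 and 35445 under TGF-β+2APB. With 3 groups such likeness is common, since 1545 of 13352 genes had a Pearson correlation above 0.95 with Loxl2. For Loxl1, taken because its fitted rise with TGF-β was the largest of the 10 with all libraries (without DMSO replicate 1 it was log2 2.26, below Plod2 at 2.72, and without TGF-β replicate 1 it was 2.77, below Plod2 at 3.07), the nearest were 4930487H11Rik, Gm13293 and Sprr1b, with differences of 0.394, 0.409 and 0.424, and each of these had at most 56 counts in any library.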

How the data were processed

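NMuMG RNA selected by oligo-dT was sequenced as single-end reads. According to the paper and the submitters' processing notes, the authors checked reads with FastQC 0.11.2, aligned them with TopHat2 2.0.13 and assigned them to genes by featureCounts. The authors deposited raw counts per gene. The notes name mm10 (GRCm38), while the paper's methods name a human build. Strand setting and treatment of reads with several alignments are not given in the sources used here. All deposited counts were even, and halving them was one of the alternatives. All 6 columns were matched to samples, and 0 columns were left out.

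Counts were fitted in R 4.3.3 with edgeR 4.0.16 (TMM factors, mean of at least 20 normalized counts, 3 groups in 1 quasi-likelihood model, no covariate, Benjamini-Hochberg FDR of 0.05). Each SE was obtained by dividing the log2 fold change by the root of its F statistic. DESeq2 1.42.0 was an alternative, as were other scalings, filters, a replicate block and leaving out each library. The fitting steps were also run on simulated counts for TGF-β against DMSO. That simulation had few changed genes and the same spread for every gene, unlike these data, so it does not vouch for the calls given here. Positions came from GENCODE M21, to which 94.6% of the entries were matched by symbol.

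The 10 genes, the lists and the marker genes were chosen with earlier results of these data known. Named were all 10 enzymes, from the further lists the 3 called genes with the largest rise and the 3 with the largest fall in each comparison, and the 3 genes nearest in pattern to the called enzyme with the largest change. The pseudocount of 0.5 normalized counts for the pattern distance was chosen after the data were seen, since 0.5 on the CPM scale had flattened low counts. Marker lists covered epithelium, blood cells, endothelium, adipocytes, hepatocytes and myoepithelium. Comparisons made by the authors, and read-level data, were not used here.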

Additional observations from a re-analysis of the deposited data

How the results depend on the processing

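The 9 calls for TGF-β against DMSO became 4 at an FDR of 0.01, where 3369 of all 13353 entries were called. Without either DMSO library P4ha1, Lox, Loxl4 and Plod3 lost the call, and fewer of all entries were called as well. A minimum of 10 counts in every library left 7, because Lox and Loxl1 were then not tested. The 7 calls for TGF-β+2APB against DMSO ran from 5 to 7 over all alternatives. The single call for TGF-β+2APB against TGF-β was the least stable count. It was 4 with DESeq2 (P4ha1, Loxl4 and Plod2 added), where 3646 of all 13353 entries were called. It was 3 with library size scaling (2682 of 13352 entries), 2 with the minimum of 10 counts (2316 of 12679) and 0 without a count filter (1968 of 18512). With only the 4 libraries compared (860 of 13151) and at an FDR of 0.01 (601 of 13353) it was 0. Leaving out single libraries moved this count in both directions, as it moved the count over all entries. Without TGF-β+2APB replicate 2, Plod2 passed and Loxl2 did not. With single libraries left out, the log2 difference between TGF-β+2APB and TGF-β also changed sign for Lox (-0.35 to 0.26), Loxl1 (-0.0763 to 0.27), Loxl3 (-0.48 to 0.54), P4ha2 (-0.20 to 0.17), Plod1 (-0.0157 to 0.27) and Plod3 (-0.21 to 0.0110). Over all enzymes and comparisons, 397 of 444 alternative values kept direction and side of the threshold, 23 lost the call, 14 gained it and 10 reversed. The cause was not tested. Over all entries, the count called between TGF-β+2APB and TGF-β was 2334, against 3646 with DESeq2, 1342 with the block, 860 with only the 4 libraries and 601 at an FDR of 0.01. Called partners in that comparison were 11 with DESeq2, 10 with library size scaling and 1 with only the 4 libraries, and called substrates with TGF-β against DMSO were 4 with DESeq2. The Pearson correlation in place of the distance named 0 of the same 3 nearest genes for Loxl1 and for Loxl2. A pseudocount of 0.5 on the CPM scale, added after seeing the data, named 0 of the 3 for Loxl1 (Fat2, Rcc1 and Nop2 instead) and 2 of the 3 for Loxl2.

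The replicate numbers did not pair the samples: the correlations of replicate differences between groups were 0.14, -0.43 and -0.26. With the replicate number as a block, 9 enzymes were called for TGF-β against DMSO, 0 for TGF-β+2APB against TGF-β and 6 for TGF-β+2APB against DMSO. With the TGF-β+2APB numbers exchanged, an alternative added after seeing the data, the block gave 9, 1 and 7 calls, and the 1 was Plod2 and not Loxl2. Over all entries the exchanged block called 2465 between TGF-β+2APB and TGF-β, against 1342 with the numbers as given and 2334 without a block. With 2 libraries per group and fewer than 60 counts for Lox, Loxl1 and Loxl3, changes in these genes were measured with wide error.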
